A study of Mus musculus with 4 samples.

Results

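Lymphotoxin beta (Ltb) divided the non-photoconverted group 2 innate lymphoid cells (ILC2) of mouse pancreas into 46 Ltb-positive and 52 Ltb-negative cells, and every other gene was compared between them. The cells were C57BL6J ILC2 sorted singly into 384-well plates. They carried KIKR, a protein that light converts from green to red fluorescence, and this comparison used only cells sorted as green, that is, not photoconverted. Libraries were made by SORT-seq, a single-cell method that tags polyadenylated RNA of each well with its own barcode, and the deposited values are reads per gene and well. The labels used here give neither the animal nor the feeding state of a well, nor what drives KIKR. The series concerns fasting, but no condition could be compared.

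Members were chosen by their own Ltb reads, so Ltb itself is a description and not a result. Of 1170 sorted cells on 4 plates, plate 1 held 151 green cells, and 98 of them had 500 or more genes detected at 1 read and under 25% mitochondrial reads. A cell was Ltb-positive at 16 or more Ltb reads and Ltb-negative below that. Row names were taken to fit plate 1 only: mitochondrial rows held 5.63% of its reads but between 0.0110% and 0.0531% on the other 3 plates. The plate is therefore 1 sample, its cells are not replicates of a condition, and no test was possible. Differences below are given with exact binomial intervals (Clopper-Pearson, 95%), which cover counting error only, and amplified reads are not independent molecules.

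Ltb encodes a membrane protein of the tumour necrosis factor (TNF) family that holds lymphotoxin alpha at the cell surface. The heterotrimer binds the lymphotoxin beta receptor on stromal and myeloid cells and activates the non-canonical NF-kB pathway there. It is best known from lymphoid tissue inducer cells and group 3 innate lymphoid cells (ILC3), where it drives the formation of lymph nodes and gut lymphoid tissue, and from B and T cells. ILC2 are defined by the transcription factor Gata3, respond to interleukin-33 through Il1rl1, and make type 2 cytokines and amphiregulin.

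The Ltb gene (ENSMUSG00000024399.5, protein coding) lies on the plus strand at chr17:35194439-35196320 (mm10). Because Ltb is a textbook target of NF-kB, and NF-kB genes are among those compared below, the 182 bases before this start are shown 5′ to 3′ (chr17:35194257-35194438, plus strand, sequence from RefSeq for mm10), with the match to the usual degenerate NF-kB motif in capitals. RefSeq places the start 68 bases further downstream.
Ltb promoter: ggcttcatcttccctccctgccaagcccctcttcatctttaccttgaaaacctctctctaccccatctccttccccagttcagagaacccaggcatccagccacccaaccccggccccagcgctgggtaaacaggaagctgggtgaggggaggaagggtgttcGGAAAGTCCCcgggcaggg
Searched on both strands, the window held 1 NF-kB match, which reads GGGACTTTCC on the minus strand (chr17:35194420-35194429), and 5 matches of the ETS core GGAA, of which 1 overlapped the NF-kB match. Of 32851 promoter windows of the same length, 5.11% held an NF-kB match and 86.9% a GGAA. A match describes letters only, and the reads bear on RNA, not on binding.

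Ltb was detected, at 16 reads or more, in 46.9% of the 98 cells (interval 36.8% to 57.3%). It reached that level in 0 of 53 green wells that did not pass the filter and in 0 of 221 empty wells, which allows a share of up to 1.36% (3 counts of the total). Ltb-positive cells held between 17 and 388 Ltb reads, with a median of 102, or 36.9 to 1815 reads per 1000000 gene reads (CPM), with a median of 308.5. Among Ltb-negative cells, 36 had no Ltb read and 16 had 1 to 12. The groups do not overlap in reads because the rule cut there. The 3 cells just below the threshold held 12, 12 and 9 reads, and the 3 just above it held 17, 18 and 23. On the depth-adjusted scale they did overlap: 10 Ltb-negative cells had a higher Ltb CPM than the lowest Ltb-positive cell.

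Ltb detection went with the depth of the cell. Divided into 4 groups by genes detected, Ltb was found in 3 of 25 cells with 502 to 1019 genes, in 6 of 24 with 1114 to 1635, in 15 of 24 with 1638 to 2358 and in 22 of 25 with 2373 to 4479. The level of Ltb was also highest in the deepest cells, with mean CPM of 132, 103, 195 and 340 in the 4 groups. After each cell was thinned to 5000 gene reads, the expected share of cells with an Ltb read was 19.0%, 21.5%, 46.5% and 67.9%. The order of the shares was the same at equal reads per cell. A larger cell and a cell with more RNA per volume cannot be told apart in these reads.

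**Figure D1:**
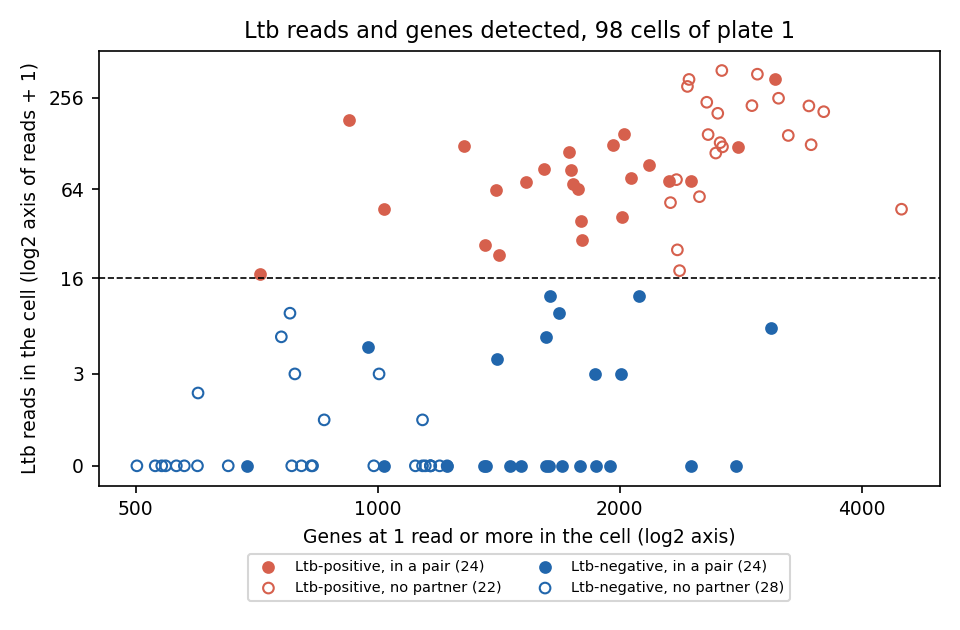
Ltb reads (vertical, log2 of reads + 1) against genes detected at 1 read or more (horizontal, log2) in the 98 cells; colour gives the Ltb group, filled points are cells in a pair, open points have no partner, and the dashed line is the threshold of 16 reads. Open red points sit at 2312 genes or more and open blue points at 1220 genes or fewer.

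Ltb-positive cells had a median of 2355 genes (714 to 4479) and Ltb-negative cells 1154.5 (502 to 3082). Median gene reads were 335744 and 94789, while median spike-in reads, which come from RNA added in equal amount to each well, were 65957.5 and 70319.5. The gap was thus in reads from the cell and not in reads from the spike-in. Mitochondrial reads made up a median of 8.76% and 10.4%. The index sort's red fluorescence had medians of -197.5 (-2415 to 1527) and 117.5 (-1187 to 1039) arbitrary units, with wide overlap. Plate rows and columns overlapped as well, with median columns 10 and 9.

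Without regard to depth, 741 of 1222 genes were detected in a share of Ltb-positive cells at least 20 percentage points higher, none in a share that much lower, and the median gene differed by 22.99 points. Each Ltb-positive cell was therefore paired with 1 Ltb-negative cell of nearly the same number of detected genes (within 0.2 on the log2 scale), which gave 24 pairs. Paired Ltb-positive cells had a median of 1763.5 genes and paired Ltb-negative cells 1636.5, with 210830 and 188364 gene reads. The Ltb-positive cell was still the deeper of the 2 in 23 of 24 pairs, by a mean of 0.065 log2 units. Left without a partner were 22 Ltb-positive cells, all at 2312 genes or more, and 28 Ltb-negative cells, all at 1220 or fewer, so the paired comparison leaves out most of the deepest Ltb-positive cells.

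Between cells of similar depth most genes were found about as often in both groups. At a detection limit of 16 reads per cell, 1218 of 11351 genes were present in at least 20% of the paired cells of both groups together. The median gene differed by 0 percentage points, with 591 genes higher in Ltb-positive cells, 430 lower and 197 equal, and the median log2 ratio of mean CPM was 0.01. A difference of 20 points or more was found for 109 genes in the higher direction (8.95% of genes tested) and for 45 in the lower direction (3.69%). With 24 cells a side, a share of 50% has an interval of 29.1% to 70.9%. Intervals were apart for only 2 of the 109 genes, Sugt1 and Mier1, and for 0 of the 45. Sugt1 and Mier1 passed the filter through the Ltb-positive cells alone, so their gap describes these cells and supports nothing further. The same limit holds for other called genes that passed wholly or mostly through 1 group. Examples are Bin2 (10 and 2 cells), Cdkn1a (11 and 3), Crip1 (10 and 3), Zfand6 (9 and 1), Maf (9 and 2) and Bst2 (8 and 2). In the lower direction they include Cct3 (1 and 9), Abracl, Srp9 and Arhgap9 (each 2 and 9).

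**Figure D2:**
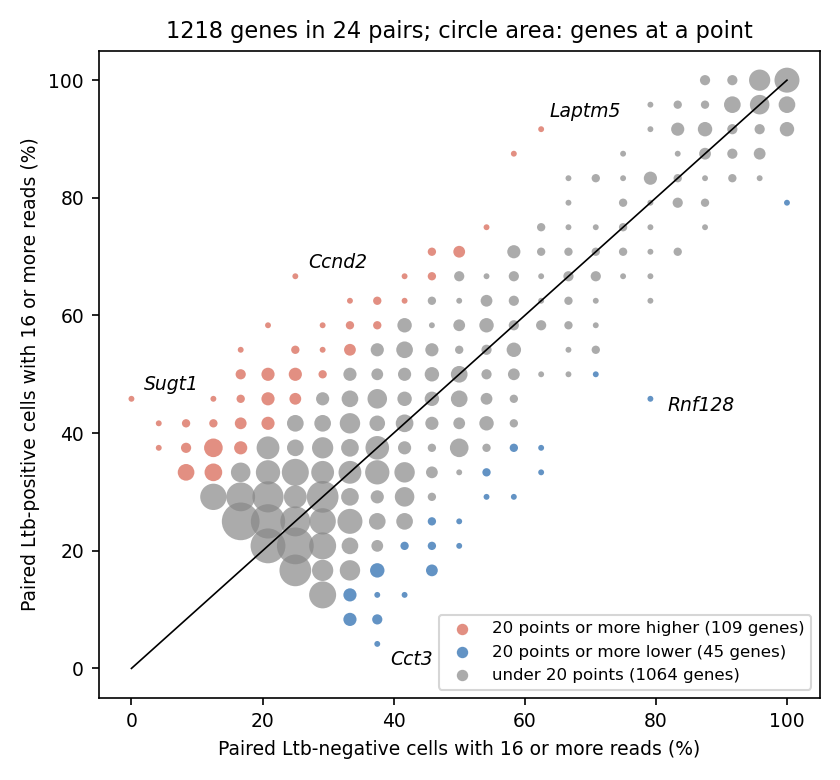
Share of paired Ltb-positive cells (vertical, %) against paired Ltb-negative cells (horizontal, %) with 16 or more reads, for 1218 genes; circle area gives the number of genes at a point, red and blue mark differences of 20 points or more, and the line marks equal shares. Most genes lie near the line, with 109 red and 45 blue genes away from it.

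Of the genes found more often in Ltb-positive cells, Sugt1 had the largest difference. Sugt1, a co-chaperone of Hsp90, was detected in 11 of 24 Ltb-positive cells and in 0 of 24 Ltb-negative partners. Its mean level was 200 and 0.473 CPM, and its highest value in an Ltb-negative partner was 6.17 CPM. Among the 28 Ltb-negative cells outside the pairs Sugt1 was present: thinned to 5000 reads, 10.7% of them had a read, against 25.5% of the unpaired Ltb-positive cells. Mier1, a transcriptional repressor that recruits histone deacetylases, was detected in 10 against 1. The RNA helicase Ddx6, which acts in messenger RNA decay and storage, was detected in 13 against 4, and Pabpn1, the nuclear poly(A)-binding protein, in 12 against 4.

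Cyclin D2 (Ccnd2, chr6:127125162-127152193, minus strand, mm10), which drives entry into the cell cycle, was detected in 16 of 24 Ltb-positive and 6 of 24 Ltb-negative partners. In 12 pairs only the Ltb-positive cell had Ccnd2 and in 2 pairs only the Ltb-negative cell did. Median Ccnd2 levels were 192 and 4.73 CPM, and the highest were 2302 and 1395, so single cells of both groups reached high levels. Slc38a1 (chr15:96571418-96642913, minus strand), a carrier of glutamine and other neutral amino acids, was detected in 14 against 5 cells, with mean levels of 706 and 92.4 CPM. Cdkn1a, the p21 inhibitor of cyclin-dependent kinases, was detected in 11 against 3, with mean levels of 638 and 69.6 CPM. Ccnd2 promotes and Cdkn1a restrains the same step, and both were found more often. Of the 6 cell cycle genes past the filter, 0 were called higher and 1, the chromatin protein Hmgb2, was called lower (4 against 9 cells). Beside 8.95% and 3.69% of all genes, a list of 6 allows no reading of these counts. The list's median difference was -4.17 points and ranged from -11.1 to 3.85 over the alternatives that kept matching.

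Among the remaining leading genes, Laptm5, a lysosomal membrane protein of blood cells that limits receptor signalling, was the most widely detected, in 22 against 15 cells. In 7 pairs only the Ltb-positive cell had Laptm5, and in 0 only its partner, with mean levels of 848 and 362 CPM. Zfand6, a zinc finger protein that binds ubiquitin, was detected in 9 against 1, the membrane-curving protein Bin2 of leukocytes in 10 against 2, the nuclear receptor co-regulator Pnrc1 in 12 against 4, and Ppp1r12a, the targeting subunit of myosin phosphatase, in 12 against 4. For these the intervals overlapped.

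Genes found less often in Ltb-positive cells formed a smaller set. Rnf128 (chrX:139563316-139673145, plus strand), the ubiquitin ligase GRAIL that restrains lymphocyte activation, was detected in 11 Ltb-positive cells and 19 Ltb-negative partners. In 9 pairs only the Ltb-negative cell had Rnf128 and in 1 pair only the Ltb-positive cell did. Median Rnf128 levels were 16.9 and 609 CPM and the highest 5733 and 13473, so the ranges overlapped widely. Cct3, a subunit of the chaperonin that folds actin and tubulin, was detected in 1 against 9. Epas1, the hypoxia-inducible factor HIF-2alpha, the receptor Notch2 and the immediate early gene Ier5 were each detected in 4 against 11.

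The other leading genes in the lower direction were found at intermediate or low shares. Csk, the kinase that switches off Src-family kinases, was detected in 7 against 14 cells, the adaptor Ywhae (14-3-3 epsilon) in 8 against 15, and Deptor, an inhibitor of mTOR, in 3 against 10. Atp5g3, a subunit of mitochondrial ATP synthase, was found in 5 against 12. The actin regulator Abracl, the signal recognition particle protein Srp9 and the GTPase-activating protein Arhgap9 were each found in 2 against 9. None of these genes had intervals apart.

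**Figure D3:**
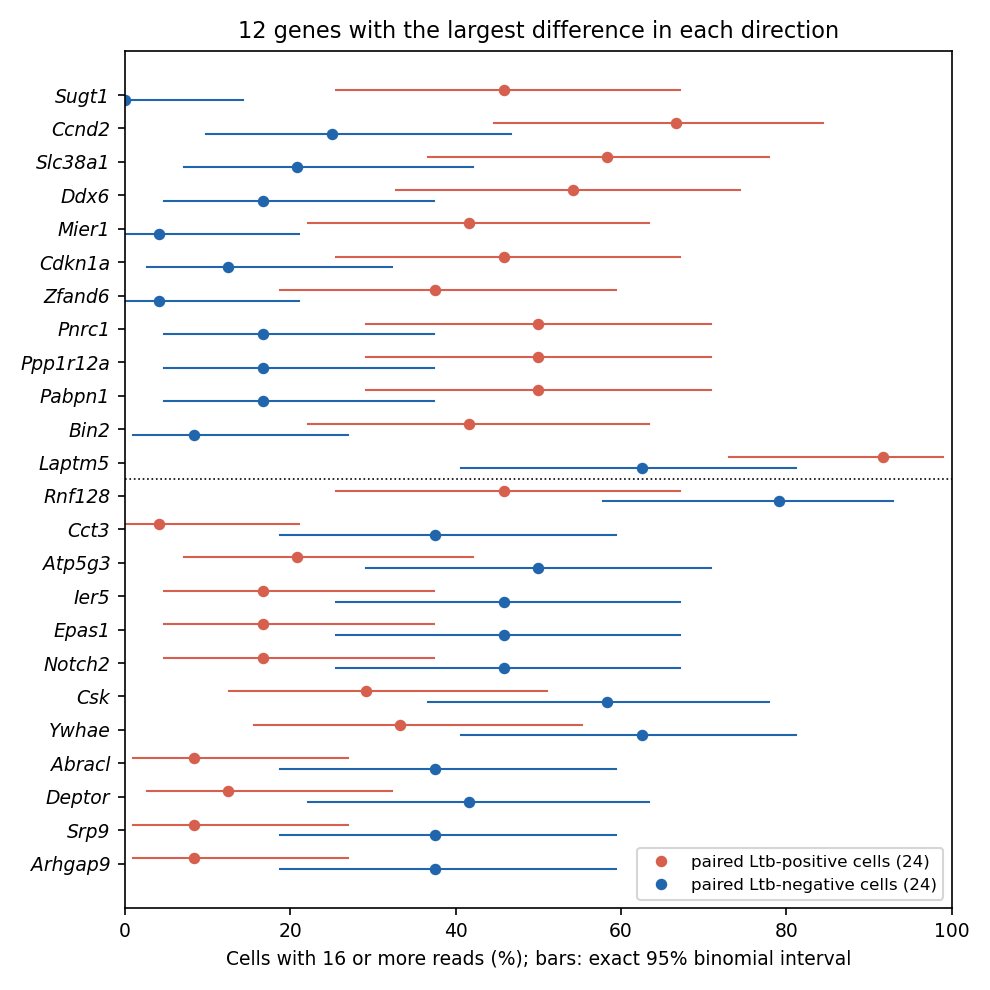
Share of paired cells with 16 or more reads (horizontal, %) for the 12 genes with the largest difference in each direction; red points are Ltb-positive and blue points Ltb-negative cells (24 each) and bars are exact 95% binomial intervals. Bars overlap for all but Sugt1 and Mier1.

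Cells without a partner hold values that did not choose these genes. They differ in depth, with a median of 2656 genes in the 22 Ltb-positive and 815.5 in the 28 Ltb-negative cells, and thinning to 5000 reads left the median of all 1218 genes at 21.5 points higher in Ltb-positive cells. Against that background the 109 genes called higher in pairs had a median of 21.4 points and the 45 called lower had 18.2. As sets, neither stood apart from all genes in these cells. Of the single genes, Ccnd2 had a read in 65.4% and 22.8% of the thinned cells, Slc38a1 in 44.3% and 6.70%, and Zfand6 in 41.0% and 6.30%, each a wider gap than the median gene's. Of the 12 leading genes in the higher direction, 6 had a wider gap than the median gene and 6 a narrower one. Sugt1 (25.5% and 10.7%) and Mier1 (13.6% and 5.34%) were among the narrower ones, and Pnrc1 was at 29.2% and 32.8%, the opposite order to the pairs. All 12 leading genes in the lower direction had the opposite order here, such as Rnf128 at 59.5% and 42.3%, and of the 45 genes called lower only 1 was below 0.

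**Figure D4:**
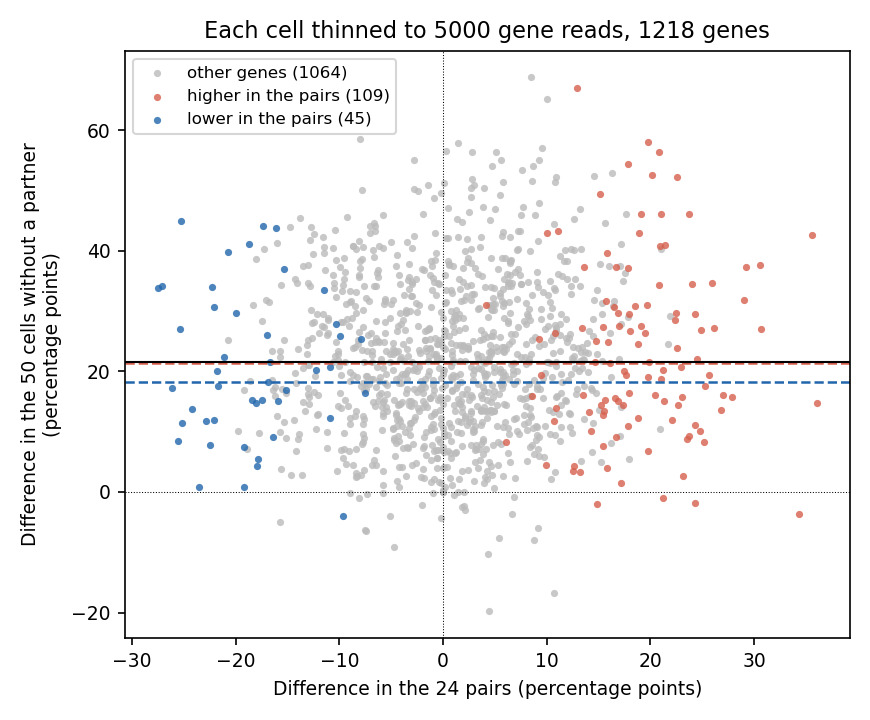
Difference in share of cells with a read after thinning to 5000 gene reads (percentage points, Ltb-positive minus Ltb-negative) in the 50 cells without a partner (vertical) against the 24 pairs (horizontal), for 1218 genes; the solid line is the median of all genes (21.5), the dashed red line that of the 109 genes higher in pairs (21.4) and the dashed blue line that of the 45 lower (18.2). The 3 medians lie close together, and 97.5% of genes lie above 0.

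The 98 cells were also ordered by their Ltb reads. Cells with no Ltb read, with 1 to 15, and the 23 lower and 23 upper Ltb-positive cells by reads had median depths of 1154.5, 1272, 1793 and 2665 genes. Thinned to 5000 reads, Ccnd2 had a read in 22.1%, 20.9%, 57.3% and 63.8% of these 4 classes, and Slc38a1 in 8.86%, 18.9%, 47.4% and 45.7%. Since both genes were named for their difference between these same cells, the gap between negative and positive classes is a description. Zfand6, named in the same way and so likewise a description, stood at 2.12%, 14.0%, 22.9% and 48.8%. Gata3 was at 79.2%, 82.9%, 94.6% and 88.8%, higher in both Ltb-positive classes than in both Ltb-negative classes. Rnf128 was at 55.4%, 57.6%, 46.7% and 58.2%, with no order along Ltb. Depth moves with these classes, and its part was not tested.

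The partner and relatives of Ltb were sparse. Of 17 TNF family ligands, 8 had a row and 1 passed the filter. Lta, which encodes the lymphotoxin alpha that Ltb anchors, was detected in 2 of 46 Ltb-positive and 0 of 52 Ltb-negative cells, and Tnf also in 2 and 0. In pairs, the ligand Tnfsf14 (LIGHT), which shares the lymphotoxin beta receptor, was detected in 8 and 7 cells. Tnfsf10 (TRAIL) was detected in 5 and 3 and Tnfsf11 (RANKL) in 2 and 2, both under the filter. Ltb was thus mostly detected without a detected Lta, at a depth where a low transcript can be missed.

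Of 13 TNF receptors with a row, 3 passed the filter and 0 were called. Beside 8.95% and 3.69% of all genes, 3 genes are too few for a reading. The co-stimulatory receptor Tnfrsf18 (GITR) was detected in 13 Ltb-positive cells and 9 partners, the TL1A receptor Tnfrsf25 in 8 and 5, and Cd27 in 10 and 11. Their median difference was 12.5 points, against 0 over all genes. It rests on 3 genes and turned to -4.76 points with Ltb-positive cells defined at 64 Ltb reads, where Tnfrsf18 stood at -9.52. Tnfrsf1b, a receptor for TNF and lymphotoxin alpha, was detected in 7 of 46 and 0 of 52 cells, but in only 2 and 0 in pairs.

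No NF-kB pathway gene was called. Of 27 with a row, 8 passed the filter, all within 20 points, and their median difference was 2.08 points. With 8.95% and 3.69% of all genes called, 0 of 8 is near the background. The inhibitors Nfkbia and Tnfaip3, both NF-kB targets, were detected in 22 and 22 and in 21 and 21 cells. Nfkb1 was detected in 14 and 13, Nfkbid in 12 and 10, Nfkbiz in 17 and 20, Traf1 in 7 and 9, and Birc3 in 8 and 7. Nfkb2, the subunit of the non-canonical pathway, was detected in 9 and 5, the widest gap of the 8. In the unpaired cells, thinned, Nfkb1 had a read in 92.5% of Ltb-positive and 27.3% of Ltb-negative cells, a wider gap than that of Ccnd2 there. Those groups differ in depth, and the median of all genes there was 21.5 points. Nfkb1 was the widest of the 8, followed by Nfkbid (32.7), Birc3 (32.6), Nfkb2 (28.7) and Tnfaip3 (22.3). Nfkbiz (15.1), Traf1 (9.94) and Nfkbia (-2.27) were below that median. Mean levels of Tnfaip3 were 8879 and 5787 CPM and those of Nfkbia 3133 and 3674 CPM.

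Both groups carried the markers of ILC2. At least 3 of the ILC2 markers were detected in 22 of 24 paired Ltb-positive and 23 of 24 paired Ltb-negative cells (44 of 46 and 37 of 52 over all cells). Gata3 was detected in 22 and 23 cells, with mean levels of 2864 and 2436 CPM, and Il1rl1 in 19 and 20. Gata3 also reached 16 reads in 7 of 221 empty wells (3.17%), far below either group. Of 13 identity genes past the filter, 2 were called higher and 0 lower, beside 8.95% and 3.69% of all genes, with a median of 4.17 points. The called genes were Il7r, the interleukin-7 receptor chain, in 18 and 13 cells, and the transcription factor Maf, in 9 and 2. Mean Il7r levels were 364 and 385 CPM, so Il7r was found in more Ltb-positive cells while its mean was slightly lower.

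Effector genes gave no call, but beside 8.95% and 3.69% of all genes a list this short allows no reading of that. All 8 effector genes past the filter were within 20 points, with a median of -6.25, which ranged from -9.52 to 4.17 over the alternatives that kept matching. Amphiregulin (Areg) was detected in 15 and 19 cells, at mean levels of 1434 and 1626 CPM, the CGRP precursor Calca in 10 and 13, Csf2 in 13 and 14, arginase 1 (Arg1) in 10 and 12, and Il5 in 4 and 6. The growth factor Csf1 was detected in 8 and 6, the chemokine Cxcl2 in 6 and 6 and the protease Furin in 9 and 9. Over all cells, where depth differs, Il5 was detected in 15 of 46 and 8 of 52 and Klrg1, an inhibitory receptor of mature ILC2, in 36 and 20. In pairs Klrg1 stood at 16 and 12 and the interleukin-25 receptor chain Il17rb at 5 and 6. The checkpoint genes Klrg1 and Pdcd1 (9 and 6) were among 4 past the filter, all slightly higher, with a median of 8.33 points. At 64 Ltb reads that median was -2.38. Of these 4 genes 0 were called, again too few for a reading.

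Some single genes of trafficking and of less mature lymphocytes were called higher. Beside the 8.95% and 3.69% of all genes, lists this short allow no reading of their counts. Of 9 chemokine receptor and integrin genes, 2 were called higher and 0 lower: Ccr2, a receptor for monocyte-attracting chemokines, in 14 and 8 cells, and the gut-homing integrin chain Itgb7 in 14 and 9. Cd69, which holds lymphocytes in tissue, was detected in 15 and 9 and was the 1 called gene of 5 in the egress and residency list. Of 7 progenitor-like genes, 2 were called higher, Itgb7 again and the GTPase Gimap4 (9 and 3), and their median was 4.17 points.

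**Figure D5:**
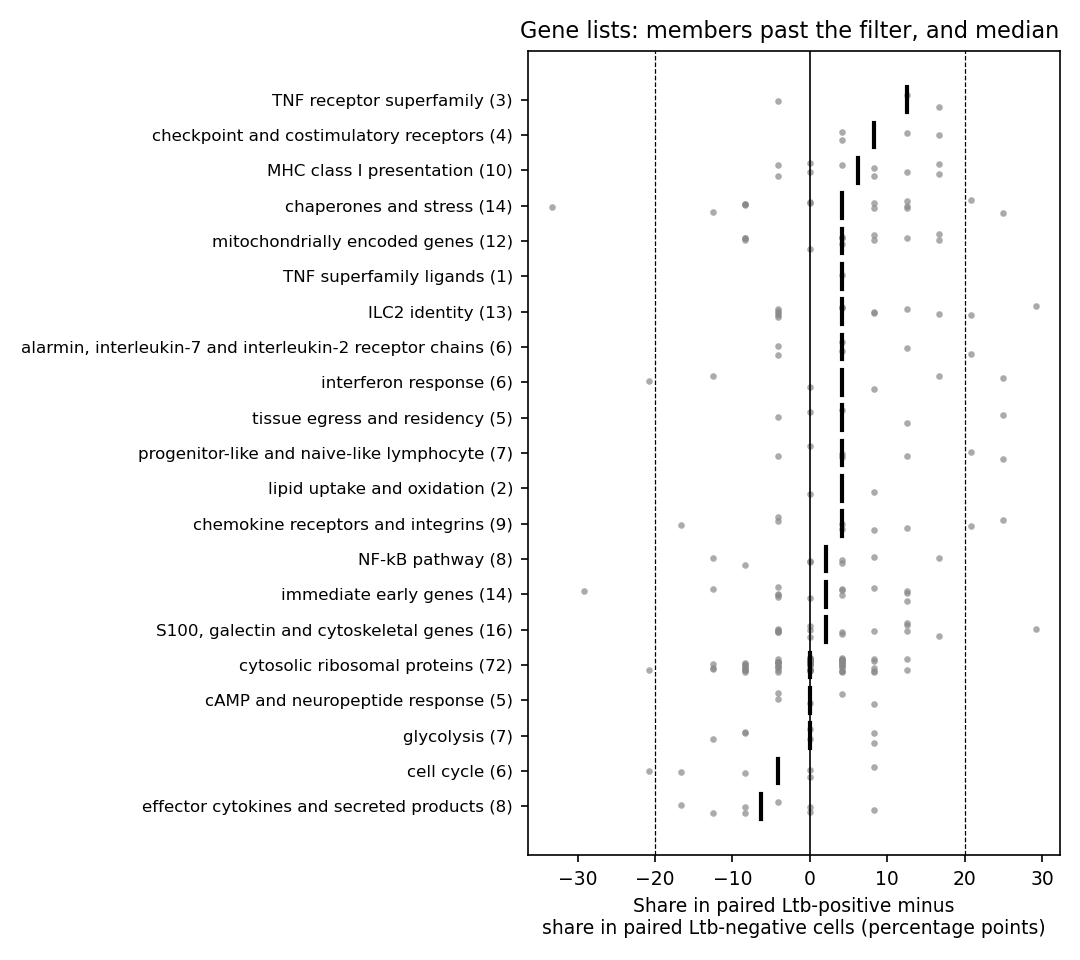
Difference in share of paired cells with 16 or more reads (horizontal, percentage points, Ltb-positive minus Ltb-negative) for each list's genes past the filter (grey points, number in brackets) and the list's median (black bar); dashed lines mark 20 points in each direction. List medians lie between -6.25 and 12.5 points.

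Calls in the stress, interferon and cytoskeletal lists are given beside 8.95% higher and 3.69% lower over all genes. These lists, too, are too short for a reading of their counts. Of 14 chaperones, 2 were called higher, the endoplasmic reticulum chaperone Hsp90b1 (12 and 6) and Hsph1 (9 and 4), and Cct3 was called lower. Of 6 interferon response genes, the antiviral membrane protein Bst2 was called higher (8 and 2) and the ubiquitin-like Isg15 lower (4 and 9). The LIM protein Crip1 (10 and 3) was the 1 called gene of 16 in the S100, galectin and cytoskeletal list. Of 14 immediate early genes 0 were called higher and Ier5 lower, and Nr4a1, induced by many stimuli, was detected in 19 and 20 cells. No gene was called among 10 of MHC class I presentation, 7 of glycolysis, 5 of the cAMP response and 12 encoded by mitochondria. Of 72 ribosomal protein genes 1, Rps28, was called lower (19 and 24), with a list median of 0. Most were detected in nearly all paired cells of both groups, such as Rpl13 (24 and 24), which leaves no room for a call higher. The same limit holds for B2m, H2-K1, H2-D1 and mitochondrial genes such as mtCo1 (24 and 23). Median summed ribosomal levels were 95782 CPM in paired Ltb-positive and 121622 in paired Ltb-negative cells. Their ranges overlapped (55646 to 317202 and 51282 to 205029).

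Single markers of other cell types were common, while cells with several were few. Over all cells, where depth differs, a marker of the ILC3-like list was detected in 36 of 46 Ltb-positive and 21 of 52 Ltb-negative cells. A T cell-like marker was detected in 29 and 16 and a myeloid-like marker in 25 and 9. In pairs these counts were 17 and 16 for ILC3-like, 14 and 9 for T cell-like and 12 and 6 for myeloid-like markers. Among all 98 cells, 7 Ltb-positive and 0 Ltb-negative cells carried 3 or more ILC3-like markers, but 0 cells of either group did in pairs. The receptor chains Il23r and Il1r1 were detected in 0 cells. Of 16 listed ILC3-like markers, 9 had a row. Summed ILC3-like CPM ranged from 0 to 1677 in Ltb-positive and from 0 to 4197 in Ltb-negative cells. The medians were 305 and 34.6 over all cells, and 185 and 285 in pairs. Cd81, on that list and also found on other lymphocytes, was detected in 24 and 8 cells, and in 11 and 7 in pairs.

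At least 3 B cell-like markers were found in 3 Ltb-positive and 0 Ltb-negative cells (1 and 0 in pairs), with Cd74, the invariant chain of MHC class II, in 9 and 0, H2-Aa in 4 and 0 and Cd22 in 0 cells. Summed B cell-like CPM ranged from 0 to 11547 and from 0 to 251. At least 3 T cell-like markers were found in 2 and 1 cells, with Cd3e and Foxp3 in 0. No cell held 3 markers of NK cells, myeloid cells, mast cells, stroma or pancreas tissue, but few of these markers could be seen. In that order, 7 of 15, 4 of 16, 2 of 10, 3 of 13 and 7 of 17 had a row. The mast cell list could not reach 3 markers. Of the myeloid, stromal and pancreas rows, 2, 2 and 5 were detected in 0 cells. Absence of these cell types was therefore not tested. With the 6 cells that held 3 or more markers of T, B, NK, myeloid, mast or stromal cells left out, 94 genes were called higher and 47 lower. Reads of free RNA, neighbouring wells or a second cell in a well cannot be told apart from expression here, and their part was not tested.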

How the data were processed

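Single pancreatic ILC2 were index-sorted into 4 plates of 384 wells, per the labels. The authors deposited 1 table of raw read counts per gene row and well (reads, not unique molecules), and a sort record with each well's colour class, batch and red fluorescence intensity in arbitrary units, as deposited and with no stated scaling. STAR, STARsolo, edgeR and the mm10 build are named, without version or role, in the submitters' processing notes; the counting settings and filters are not given in the sources used here.

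Green wells of plate 1 were kept at 500 or more non-spike-in rows with 1 read and under 25% mitochondrial reads. The plate's 384 wells held 52614294 reads, of which 43.2% were spike-in. One cell per well was sorted and no doublet caller was run. Ltb-positive cells (16 or more reads) were paired 1 to 1, without replacement, with Ltb-negative cells on log2 genes at 1 read (Ltb left out, within 0.2), taking the most pairs and then the least total distance. Genes detected (16 reads) in 20% or more of all paired cells together were compared by share and called at 20 percentage points. A gene could pass this filter through 1 group alone, as Sugt1 did. Thinned values are expected shares of cells with 1 read when 5000 gene reads are drawn without replacement. CPM is reads per 1000000 gene reads, and log2 ratios add 10 CPM. Several genes with near-identical copies, such as those of ribosomal proteins, may share reads. Gene coordinates are from the GENCODE annotation of mm10. Promoter sequences are from RefSeq.

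Named genes are the 12 with the largest difference each way whose thinned difference and CPM ratio had the same sign, skipping ribosomal protein genes, numbered models and pseudogenes. Added to these are, of each list, the 3 members with the highest share and the 2 with the largest difference, all TNF family and NF-kB genes past the filter, and Il5, Klrg1, Calca and Il17rb. Members of lists under the filter, such as Lta, Tnf and Tnfsf10, are given as counts and were chosen after their values were seen, as were Arg1, Csf1, Cxcl2, Furin and Cd74. The members and the 21 pathway and 10 marker lists were chosen with earlier results of these data known. Of the alternatives tried, 2 were added after seeing the data: no matching with thinning, and only the cells without a partner with thinning. With 1 sample there is no p-value. The comparison was checked on simulated data with Python 3.11.15, numpy 2.4.6, pandas 2.3.3 and scipy 1.17.1.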

Additional observations from a re-analysis of the deposited data

Results flagged for a closer look

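Photoconverted cells of plate 1, which no comparison used, also held Ltb: 4 of the 8 that passed the filter had 16 or more Ltb reads (exact 95% binomial interval 15.7% to 84.3%), against 0 of 221 empty wells. Their Ltb reads were 69, 0, 258, 1, 4, 92, 74 and 0. The interval includes the 46.9% found among the 98 green cells of all depths. The 8 photoconverted cells were deeper, with a median of 2747.5 genes against 1636.5 in the green cells. Of the 25 deepest green cells (2373 to 4479 genes), 88% were Ltb-positive. Median Ltb levels were 43.7 CPM in the photoconverted cells, 61.4 in all green cells and 309.6 in those 25. The colours were not matched on depth, and a difference between them was not tested.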

How the results depend on the processing

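No pairing of replicates was possible because the cells come from 1 plate and form a single sample, with no replicate numbers shared between groups. For the same reason no replicate could be left out. The pairs used above match single cells by genes detected. Against 109 genes higher and 45 lower, the counts were 62 and 28 with Ltb-positive cells defined at 4 Ltb reads; 114 and 88 at 64 Ltb reads; 92 and 24 with a split at the median Ltb CPM; 189 and 80 with detection at 4 reads; 53 and 18 at 64 reads; 69 and 54 with pairing on genes at 16 reads; 182 and 139 with the 5 nearest negatives; 43 and 17 after thinning to 5000 reads; 182 and 82 with a filter at 10% or none; 179 and 100 under 10% mitochondrial reads; 12 and 2 at 30 points; 741 and 0 without matching; 198 and 0 without matching but thinned; and 589 and 0 in unpaired cells thinned. The counts stayed within 1.5 times with negatives of 0 Ltb reads (122 and 55), pairing on gene reads (93 and 52), 1000 genes or more (116 and 51), without 3 dividing cells (100 and 31), and without 6 cells with markers of other types (94 and 47), but the genes were not all the same: 69 of the 109 and 20 of the 45 were called with negatives of 0 Ltb reads, and 49 and 23 with pairing on gene reads. Of 25 list medians, 13 took the opposite sign in at least 1 of the 14 alternatives that kept matching. Of the 61 genes checked, Ccnd2 (26.1 to 54.9 points), Slc38a1 (22.7 to 44.4), Ddx6 (21.7 to 54.8) and Zfand6 (20.8 to 46.2) stayed above 20 points in all 17 alternatives that recompute a gene. These genes were named for their difference in the same cells, which most alternatives reuse, so this is a description. The median gene itself differed by 22.99 points without matching and by 21.5 in unpaired cells thinned. The sign turned, in percentage points, for Ywhae at 64 Ltb reads (4.76) and, under 10% mitochondrial reads, for Atp5g3 (7.69) and Il7r (-15.4). Without matching it turned for Cct3 (15.6), Atp5g3 (16.8), Ier5 (4.01), Notch2 (11.96), Csk (8.86), Ywhae (21.7), Abracl (0.836), Srp9 (2.76), Hmgb2 (7.36) and Rps28 (0.669), and with thinning added for Cct3 (9.54), Atp5g3 (3.92), Notch2 (4.77), Ywhae (10.9), Srp9 (0.991) and Hmgb2 (4.48). In unpaired cells thinned it turned for Pnrc1 (-3.66), Rnf128 (17.3), Cct3 (39.8), Atp5g3 (34.1), Ier5 (11.8), Epas1 (7.84), Notch2 (30.7), Csk (11.9), Ywhae (44.9), Abracl (11.4), Deptor (4.30), Srp9 (18.2), Arhgap9 (9.12), Hmgb2 (16.4) and Rps28 (13.7). The 3 settings that drop matching leave the groups unequal in depth; for the others the cause was not tested.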
